A study of Mus musculus with 18 samples.

Results

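The genes described here are 8 genes of smooth muscle cells and of the contractile fibroblasts called myofibroblasts: Acta2, Tagln, Cnn1, Myh11, Des, Vim, Pdgfra and Pdgfrb. They were measured in mouse kidney, in which Aprt, the gene of adenine phosphoribosyltransferase, was knocked out. They are 8 of the 8251 genes with a probe set of their own on the Affymetrix array. Every probe set with one of these symbols as its single gene symbol was taken, 10 of 12488. Of the 10, 8 probe sets of 7 genes lay above the filter on low signals and were tested; the single Vim probe set and the dimmest of the 3 Pdgfra probe sets lay below it and are given as values only. The rule goes by the cells these genes mark and uses no measured value.

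The contractile genes encode the machinery with which smooth muscle shortens: Acta2 its actin, Myh11 its myosin heavy chain, Cnn1 and Tagln actin-binding proteins. In kidney they are known from the walls of arteries and arterioles, and Acta2 also marks myofibroblasts, which lay down matrix in scarring. Many of these genes are driven by serum response factor, which binds a DNA element named the CArG box, and by transforming growth factor beta. Des and Vim encode intermediate filaments of muscle and mesenchymal cells, and Pdgfra and Pdgfrb encode the receptors for platelet-derived growth factors on fibroblasts, pericytes and mesangial cells.

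Whole-kidney RNA came from 18 mice of the strain labelled C57, with 1 array per mouse. At 7 days of age there were 6 control and 6 Aprt KO mice, 3 female and 3 male of each genotype, and at 1 month 3 control and 3 Aprt KO mice, 1 female and 2 male of each. The series text gives the genotypes as Aprt-/- and Aprt+/+, and calls the younger mice newly born and the older ones adult. The mice came as sex-matched littermate pairs, 1 control with 1 KO, numbered here as litters 1 to 6 at 7 days and 7 to 9 at 1 month. The labels give nothing further on the allele or on treatment. Loss of Aprt diverts adenine to a poorly soluble product that forms stones in the urinary tract. Values are signals on a linear scale, fold changes are on the scale of log2(signal + 29), and a probe set was called at a limma adjusted p under 0.05 over the 6771 probe sets tested.

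In this bulk tissue, fewer cells of a type and less RNA per cell cannot be told apart. The kidney tubule markers summed to between 28150 and 90370 on every array. At 7 days their sums were 37610 to 56430 in controls and 28150 to 43610 in KO mice. Of these 9 markers 1 had a 7-day log2 fold change above 0, and the median was -0.31. None was called by limma (0.561% of all called lower), and 6 were called lower with the litter as a block (3.5% of all). The part of this difference in the 7-day results was not tested. The Aprt probe set read on the other genotype's side of the midpoint at that age on 4 arrays, the 7-day controls of litters 1 and 2, the 7-day KO of litter 4 and the 1-month KO of litter 7, so results are also given without these arrays where that changes a call. The 29 striated muscle markers on the array summed to 2091 to 3486 on 15 arrays, but to 6079 and 6723 in the control and KO mouse of litter 4, and to 13310 in the 1-month KO mouse of litter 9. The skeletal muscle actin Acta1 read 1662 and 1842 in litter 4, 471.6 in the 1-month KO of litter 7 and 3978 in that of litter 9, against 2.182 to 132.6 elsewhere. The 18 macrophage and myeloid markers summed to 4108 to 7262 in the 7-day controls and 8954 to 13000 in the 7-day KO mice. Of the 12 tested, 11 were called higher in KO, beside 2.38% of all probe sets. At 1 month their sums were 3683 to 4772 in controls and 4882 to 6358 in KO mice. There 0 of 12 were called, beside 0.266% of all called higher, while all 12 values lay above 0 with a median of 0.415.

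The stretches upstream of Acta2 and Cnn1 are shown because both genes rose in the 7-day KO kidneys, and CArG boxes near the start site are the textbook link between contractile genes. Each is the 100 bases before the start site that RefSeq gives on GRCm38.p6, read 5′ to 3′ on the gene's strand. Acta2 lies on the minus strand at chr19:34255374-34255473 and Cnn1 on the plus strand at chr9:22099153-22099252. Capitals mark matches to the CArG box, searched on both strands with at most 1 letter of its A/T core replaced.
Acta2: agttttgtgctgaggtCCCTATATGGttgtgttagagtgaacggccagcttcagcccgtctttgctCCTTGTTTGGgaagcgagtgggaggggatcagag
Cnn1: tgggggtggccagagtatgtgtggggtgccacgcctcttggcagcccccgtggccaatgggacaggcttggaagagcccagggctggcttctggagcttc
Acta2 held 2 such matches, which begin 84 and 34 bases before the start; neither was an exact match. Over the 300 bases from 250 before to 50 after the start, 9.98% of 32851 promoters held at least 1 match of this kind, 0.822% held 2 or more and 1.63% held an exact match. No match stood in that window of Cnn1, Des, Vim or Pdgfra. Tagln, Myh11 and Pdgfrb were not analysed here for promoters.

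At 7 days the contractile genes read higher in Aprt KO kidneys. Tagln, Acta2 and Cnn1 rose, while Myh11, at a log2 fold change of 0.65, was not called (limma adjusted p = 0.113). The counts leave out Cnn1, which passed the filter on low signals only through the group where it was high. Among the 7 other probe sets tested, 2 were called higher and 0 lower, 6 of the 7 values lay above 0 and their median log2 fold change was 0.27. Over all probe sets tested the median was -0.02, 2.38% were called higher and 0.561% lower. An unadjusted p under 0.05 was reached by 3 of the 7. With the litter as a block 3 of the 7 were called higher, where 4.55% of all probe sets were called higher and 3.5% lower. The KO signals lay above every control signal for 2 of the 7, Tagln and Myh11, against 2.01% of all.

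Tagln encodes transgelin, an early marker of smooth muscle that is also made by myofibroblasts. Its signals in the 7-day controls of litters 1 to 6 were 2441, 2574, 2079, 2872, 2248 and 2319, a mean of 2422 ± 277.3 (SD, n = 6). In their KO littermates they were 4251, 4333, 4370, 3541, 4803 and 4860, a mean of 4360 ± 475.4 (SD, n = 6). The lowest KO mouse read above the highest control, and the KO littermate was higher in 6 of 6 pairs. The log2 fold change was 0.84 (SE 0.102), 1.79-fold, with a 95% confidence interval from 0.63 to 1.05 and a limma adjusted p of 3.97e-05. The smallest ratio within a pair was 1.23, in litter 4, and the largest was 2.14, in litter 5. In litter 4 striated muscle markers were high in both mice, and the Aprt signal of the KO mouse went against the label. Macrophage markers were higher in the 7-day KO arrays, and their part in the 7-day results was not tested. With a striated muscle score as a covariate the Tagln value was 0.84, and without the 4 arrays whose Aprt signal went against the label it was 0.94.

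Acta2, the smooth muscle actin, at 7 days had signals of 3094, 4030, 3690, 2730, 2530 and 3337 in the controls of litters 1 to 6, a mean of 3235 ± 569.5 (SD, n = 6). The KO littermates read 4403, 4587, 5628, 3514, 4772 and 3924, a mean of 4471 ± 729.8 (SD, n = 6). The groups overlapped, since the KO mice of litters 4 and 6 read below the highest control, but within each litter the KO mouse was higher, in 6 of 6 pairs. On the log2 scale the difference was 0.47 (SE 0.114), 1.38-fold, with an interval from 0.23 to 0.71 and a limma adjusted p of 0.0303. This call was lost in 13 of 43 alternatives, among them 10 that left out a mouse or a litter, with values from 0.37 to 0.59 and adjusted p from 0.00106 to 0.117. The arrays whose removal ended it were the KO mice of litters 1, 2, 3, 5 and 6 and the controls of litters 4 and 5, each alone, and litters 1, 3 and 5 as pairs.

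Cnn1 encodes calponin, which binds actin in differentiated smooth muscle. Its 7-day controls read 37.21, 143.1, 42.37, 128.7, 17.41 and 94.59, a mean of 77.23 ± 52.31 (SD, n = 6), so some of them were at the dim end of the array. The KO littermates read 273.1, 225.8, 199.8, 259.4, 373.2 and 315.7, a mean of 274.5 ± 62.65 (SD, n = 6). No KO signal reached down to the controls, and 6 of 6 pairs were higher in KO. Its log2 fold change was 1.65 (SE 0.297), 3.14-fold, with an interval from 1.03 to 2.27 and a limma adjusted p of 0.00263. Against controls this dim the value depends on the pseudocount, and it ran from 1.03 to 2.13 over the alternatives. The probe set passed the filter, a mean signal of 118.6, with a mean of 126.7, and only through the 7-day KO group, the other 3 groups having means below it. Its _s_at suffix means that the probes can match more than 1 transcript.

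Myh11, the myosin heavy chain that is the most specific of these markers for mature smooth muscle, read 285.1, 314.5, 163, 223, 164.9 and 284.5 in the 7-day controls, a mean of 239.2 ± 65.44 (SD, n = 6). The KO littermates read 387.4, 399.8, 346.1, 354.9, 466 and 335.3, a mean of 381.6 ± 48.15 (SD, n = 6). All KO signals lay above all control signals, and 6 of 6 pairs were higher in KO. Its log2 fold change was 0.65 (SE 0.2), 1.56-fold, with an interval from 0.23 to 1.06. Its limma adjusted p was 0.113, and 0.0481 with the litter as a block. The call was also gained in 5 other of the 42 alternatives.

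**Figure D1:**
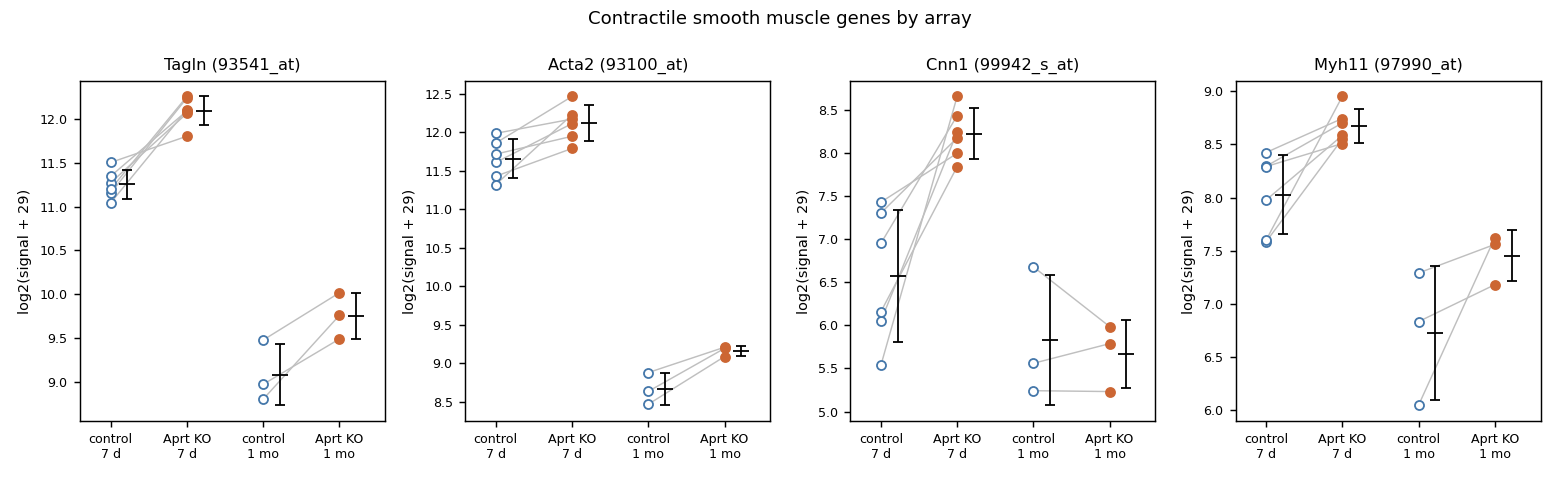
Level of the 4 contractile genes on each array, as log2(signal + 29) on the vertical axis, with 1 panel per probe set and its own axis. Open blue points are controls, filled orange points Aprt KO mice, grey lines join littermates, and black bars give the group mean and SD; the 7-day Tagln, Cnn1 and Myh11 points of the KO mice all sit above those of the controls, and every 7-day line rises.

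At 1 month, with 3 pairs, none of the contractile genes was called. Among the 7 probe sets other than Cnn1, 0 were called higher and 0 lower, by limma, and 4 had an unadjusted p under 0.05. Their median log2 fold change was 0.51, with 6 of 7 above 0, beside a median of -0.0011 over all probe sets. Of all probe sets 0.266% were called higher and 0.0148% lower. With the litter as a block 1 of the 7, Tagln, was called, against 1.08% of all called higher. In 3 of the 7, Tagln, Acta2 and Pdgfrb, every KO array read above every control array, which 3.99% of all probe sets did.

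Tagln at 1 month read 683.2, 472.8 and 417 in the controls of litters 7 to 9 and 1006, 689.3 and 836.8 in their KO littermates. The means were 524.3 ± 140.4 and 844 ± 158.4 (SD, n = 3), and the lowest KO signal lay just above the highest control. The log2 fold change was 0.67 (SE 0.144), 1.59-fold, with an interval from 0.37 to 0.97. The limma adjusted p was 0.0641, and 0.0404 with the litter as a block. It was called in 7 of 43 alternatives, among them the removal of the control, the KO mouse or both of litter 4 at 7 days. With the striated muscle score as a covariate the value was 0.61, with an adjusted p of 0.453.

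Acta2 at 1 month read 441.8, 368.5 and 325 in controls and 562.5, 556.3 and 514.8 in KO mice, with means of 378.4 ± 59.05 and 544.6 ± 25.93 (SD, n = 3). The groups were separate and 3 of 3 pairs were higher in KO. A log2 fold change of 0.50 (SE 0.161) had an interval from 0.16 to 0.84 and a limma adjusted p of 0.454, which was 0.0757 with the litter as a fixed block and 0.0363 with it as a random block. Myh11 read 85.17, 37.17 and 127.7 in controls and 116.2, 168.1 and 159.8 in KO mice. Here the groups overlapped, while 3 of 3 pairs were higher in KO. Its log2 fold change was 0.73 (SE 0.282), with an interval from 0.14 to 1.32 and a limma adjusted p of 0.777. It dropped to 0.32 without the control of litter 8, the dimmest, and to 0.31 without that pair.

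Cnn1 at 1 month read 8.847, 18.16 and 73.36 in controls and 8.585, 26.23 and 34.34 in KO mice, all under the filter level, and 1 of 3 pairs was higher in KO. Its log2 fold change was -0.16 (SE 0.42), with an interval from -1.04 to 0.73. The test of the difference between the ages, the interaction, gave -1.81 (SE 0.514) for Cnn1, a value that rests on 1 group above the filter level and 3 below it. Its unadjusted p was 0.00251 and its limma adjusted p 0.24, which was 0.088 with the litter as a fixed block and 0.0291 with it as a random block. None of the 7 other probe sets passed the interaction test by limma, 0 had an unadjusted p under 0.05, and 0.414% of all probe sets were called, or 1.61% with the litter as a fixed block. The interaction values were -0.17 for Tagln, with an interval from -0.54 to 0.20, 0.04 for Acta2, from -0.38 to 0.45, and 0.09 for Myh11, from -0.64 to 0.81, so a difference between the ages within those bounds could not be seen with this number of arrays.

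**Figure D2:**
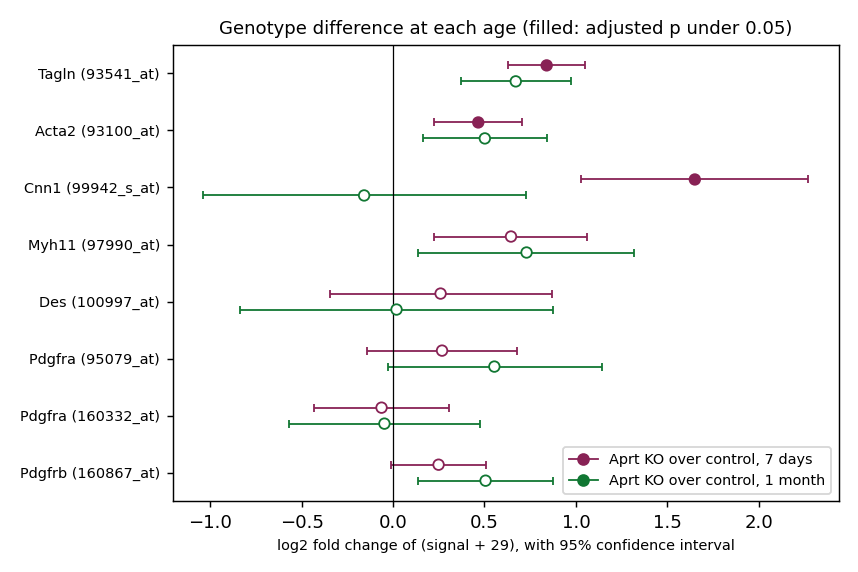
Genotype difference of the 8 tested probe sets, as log2 fold change of Aprt KO over control on the horizontal axis, at 7 days (purple) and at 1 month (green). Bars are 95% confidence intervals and filled points have an adjusted p under 0.05; only the 7-day Tagln, Acta2 and Cnn1 points are filled, and the Cnn1 point at 1 month lies at -0.16.

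Among the intermediate filaments, no difference between the genotypes was called. Des, the muscle filament desmin, spanned 38.54 to 279.8 among the 7-day controls, with a median of 149.7, and 108.9 to 223.1 among the 7-day KO mice, with a median of 178.3. The groups overlapped over nearly their whole range and 4 of 6 pairs were higher in KO. This gave a log2 fold change of 0.26 (SE 0.288), with an interval from -0.35 to 0.87 and a limma adjusted p of 0.977. At 1 month the Des controls read 256.5, 225.1 and 129.5 and the KO mice 266.1, 164.4 and 180.6. Both means were 203.7, and the log2 fold change of 0.02 had an interval from -0.84 to 0.88. The sign of the 7-day value changed to -0.01 without the control of litter 3, the lowest of its group.

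The Vim probe set lay at the 33.4 percentile of mean signal, a dim reading for vimentin, the filament of mesenchymal cells, and was not tested. Its 7-day controls spanned 69.75 to 142.4, with a mean of 97.84 ± 27.15, and its 7-day KO mice 57.61 to 83.79, with a mean of 70.73 ± 11.5 (SD, n = 6). These groups overlapped, with 1 of 6 pairs higher in KO. At 1 month the means were 73.71 ± 30.41 in controls and 77.27 ± 25.74 in KO mice (SD, n = 3). With no filter, the 7-day value had a limma adjusted p of 0.75.

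No PDGF receptor probe set passed the test between the genotypes. Pdgfrb, the receptor of pericytes and mesangial cells, read 390.1, 382.4, 216.4, 373.2, 353.8 and 351.2 in the 7-day controls and 450.8, 409.7, 361.1, 443.4, 400.6 and 389.7 in the KO littermates. The KO littermate was higher in 6 of 6 pairs, but the groups overlapped; the control of litter 3 read well under the others. Its 7-day log2 fold change was 0.25 (SE 0.124), with an interval from -0.01 to 0.51 and a limma adjusted p of 0.549. At 1 month Pdgfrb read 177.7, 171.2 and 215.6 in controls and 302.9, 246.8 and 287.7 in KO mice, with the groups apart and 3 of 3 pairs higher. There the log2 fold change was 0.51 (SE 0.175), 1.42-fold, with an interval from 0.14 to 0.87. The adjusted p was 0.551, which was 0.084 with the litter as a fixed block and 0.0409 with it as a random block. The interaction was 0.26, with an interval from -0.19 to 0.71.

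Pdgfra, the receptor of interstitial fibroblasts, has 3 probe sets that did not move alike. On the brightest the 7-day controls spanned 1742 to 2700, with a mean of 2193 ± 402.7, and the KO mice 2092 to 3359, with a mean of 2645 ± 476.7 (SD, n = 6). The groups overlapped and 5 of 6 pairs were higher in KO. The log2 fold change was 0.27 (SE 0.195), with an interval from -0.14 to 0.68 and a limma adjusted p of 0.85. At 1 month the controls read 827.5, 443.9 and 1162 and the KO mice 1537, 1185 and 773.8, where 2 of 3 pairs were higher and the mouse of litter 9 went the other way. That log2 fold change was 0.55, with an interval from -0.03 to 1.14, and it moved to 0.22 without the control of litter 8, 0.98 without that of litter 9, and 0.15 and 1.12 without these pairs. The second brightest gave -0.06 at 7 days and -0.05 at 1 month, with limma adjusted p of 0.998 and 0.999. The dimmest had a mean signal of 16.6 and was not tested.

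**Figure D3:**
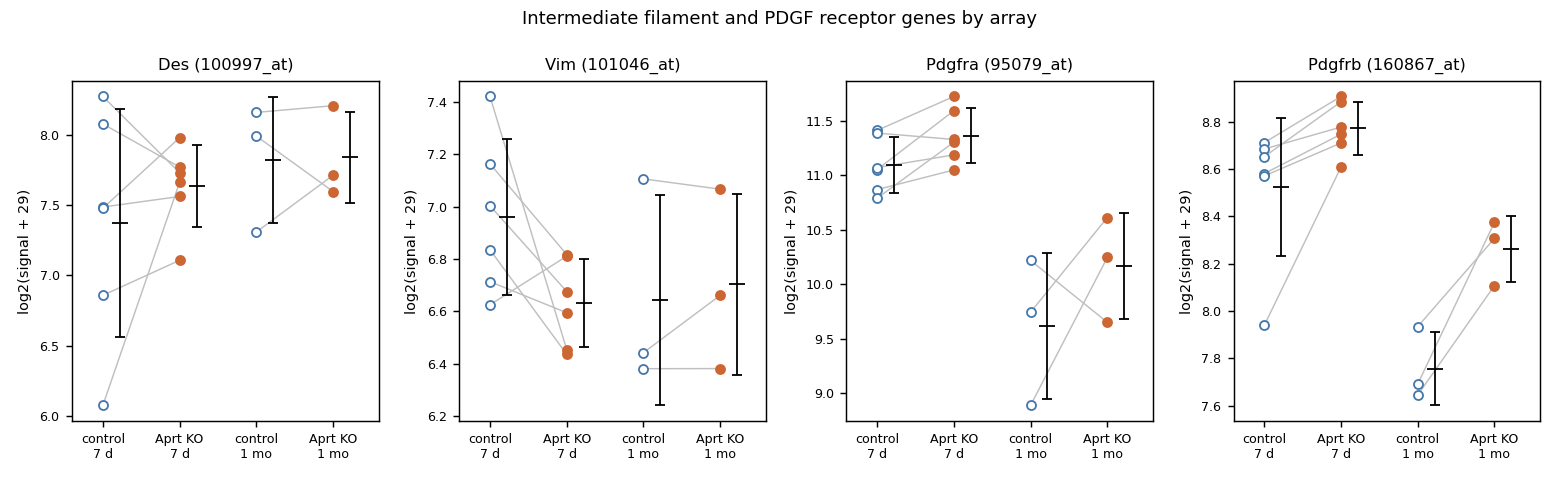
Level of Des, Vim, the brightest Pdgfra probe set and Pdgfrb on each array, as log2(signal + 29) on the vertical axis, with open blue points for controls, filled orange points for Aprt KO mice, grey lines between littermates and black bars for mean and SD. Each panel has its own axis; the genotypes overlap in all panels at 7 days, and at 1 month the 3 KO points of Pdgfrb lie above the 3 controls.

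Most of these genes were lower in the older kidneys. Between 7 days and 1 month, 5 of the 7 probe sets other than Cnn1 fell and 0 rose in controls, with a median log2 change of -1.32, and 5 fell and 0 rose in KO mice, with a median of -1.13. Over all probe sets 24.8% fell and 13.8% rose in controls, 24.2% fell and 14.1% rose in KO mice, and the medians were -0.11 and -0.12. The fall was not particular to these genes. In controls 21 of 24 myofibroblast matrix genes and 16 of 17 interstitial fibroblast genes of the lists below fell too. So did 10 of 14 endothelial and 5 of 7 podocyte markers, while 7 of 9 tubule markers rose. In KO mice 22, 15, 8 and 6 of these fell, and 9 of 9 tubule markers rose. No mouse and no litter was measured at both ages, and a difference in handling between the ages cannot be told apart from age. The age comparisons share the arrays of the genotype comparisons above. Quantile normalisation shifted the median of all probe sets by 0.125 in controls and 0.131 in KO mice, and centring each array on its median by 0.221 and 0.231. The share of age calls that were rises went from 35.8% to 45.8% and 60.8% in controls, and from 36.8% to 47.1% and 62.9% in KO mice.

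Acta2 fell the most, with a log2 change of -2.96 in controls (SE 0.142, limma adjusted p = 3.01e-11) and -2.92 in KO mice (adjusted p = 5.13e-11). Its 1-month signals, 325 to 562.5, all lay below its 7-day signals, the lowest of which was 2530. Tagln fell too, at -2.09 in controls (SE 0.127, limma adjusted p = 7.37e-10) and -2.26 in KO mice (adjusted p = 3.06e-10), and its ages did not overlap in either genotype. Myh11 fell, at -1.32 in controls (SE 0.249, limma adjusted p = 0.000374) and -1.24 in KO mice (adjusted p = 0.000674). The fall of Myh11 in KO mice was not called without the 1-month KO mouse of litter 7 (-0.999, adjusted p = 0.0519) or without the 4 arrays whose Aprt signal went against the label (-1.03, adjusted p = 0.0594).

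Cnn1 fell in KO mice, at -2.68 (SE 0.371, limma adjusted p = 1.64e-05). In controls its change was -0.87 (SE 0.371, adjusted p = 0.0728), and 7 of 40 alternatives called it. Both values are understated where signals are as dim as here, and the difference between them is the interaction given above. Pdgfra fell, at -1.41 in controls and -1.13 in KO mice on its brightest probe set (limma adjusted p = 0.000166 and 0.00127), while the second brightest gave -0.10 and -0.08 (adjusted p = 0.758 and 0.79). Pdgfrb fell, at -0.76 in controls (SE 0.154, limma adjusted p = 0.000732) and -0.50 in KO mice (SE 0.154, adjusted p = 0.0151). The fall of Pdgfrb in KO mice was lost under quantile normalisation (-0.31, adjusted p = 0.141), under median centring (-0.27, adjusted p = 0.216) and without the 4 arrays (-0.61, adjusted p = 0.0843), as well as without the 1-month KO mouse of litter 7 or 8 or the pair of litter 8. Des was the exception in sign, at 0.53 in controls (SE 0.36, adjusted p = 0.267) and 0.29 in KO mice (adjusted p = 0.565).

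**Figure D4:**
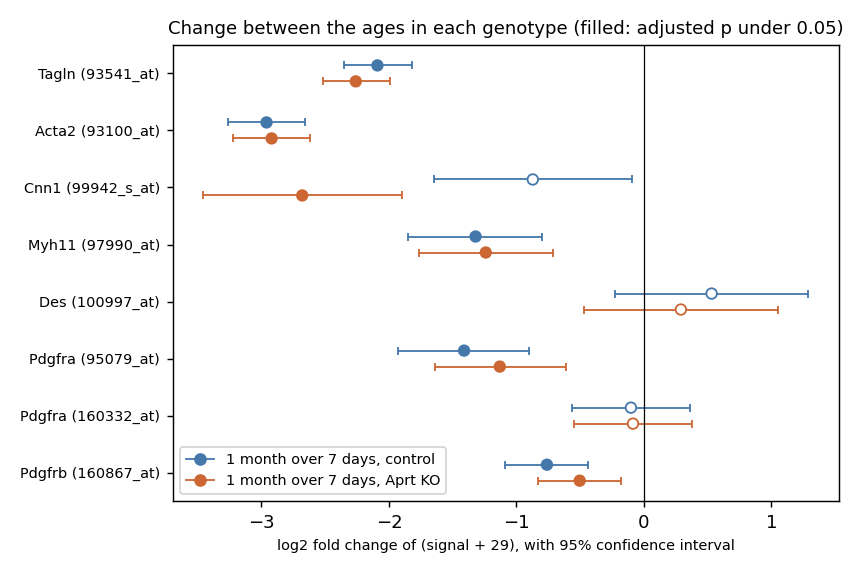
Change between the ages of the 8 tested probe sets, as log2 fold change of 1 month over 7 days on the horizontal axis, in controls (blue) and in Aprt KO mice (orange), with bars for 95% confidence intervals and filled points for an adjusted p under 0.05. Acta2 lies farthest to the left, at -2.96 and -2.92, and the Des points lie to the right of 0.

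Other genes of the contractile apparatus were counted from lists chosen with earlier results of these data known, each gene by its brightest probe set and the 8 genes above left out. Of 37 contractile and actin-binding genes, 26 were on the array and 19 were tested. At 7 days 4 rose in KO and 0 fell, where 2.38% of all probe sets rose and 0.561% fell, and the median log2 fold change of the list was 0.13, beside -0.02 over all. Tpm1, the tropomyosin along the actin filament, had mean signals of 2828 ± 163.6 in controls and 4281 ± 265.9 in KO mice (SD, n = 6) and rose by 0.59 on the log2 scale, with a limma adjusted p of 0.000433. Csrp1, a partner of serum response factor in smooth muscle, rose by 0.49 (adjusted p = 0.00453), Tagln2, a relative of Tagln made in many cell types, by 0.47 (0.0169), and the actin cross-linker Actn1 by 0.41 (0.0442). Each was higher in 6 of 6 pairs. The Tpm1 and Csrp1 calls held in all 43 alternatives, the Tagln2 call was lost in 8 and the Actn1 call in 24. Without the 4 arrays whose Aprt signal went against the label, the Tagln2 and Actn1 calls were lost (limma adjusted p = 0.162 and 0.238). Of the brightest members not called, Tpm4 gave 0.19 (adjusted p = 0.501) and the integrin Itgb1 0.11 (adjusted p = 0.945). At 1 month 0 of the 19 were called, or 2 with the litter as a block (1.08% of all), with a median of 0.27. Between the ages 12 of the 19 fell in controls and 13 in KO mice, where 24.8% and 24.2% of all probe sets fell.

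None of the 5 other actins was called in the genotype comparisons by limma. Actc1 and Acta1, striated muscle actins named after their values were seen, gave 1.41 and 3.51 at 1 month (adjusted p = 0.165 and 0.967, and 0.0429 and 0.0776 with the litter as a block), where the striated muscle markers were high in the KO mouse of litter 9. Both actins are themselves among the summed striated muscle markers, so the sums are not independent of their values. Actc1 read 276.2, 251.9 and 229.7 in the controls of litters 7 to 9 and 464.8, 435.1 and 1792 in the KO littermates. In litter 8 the striated muscle markers summed to 2895 in the control and 2601 in the KO mouse. At 7 days the mean signal of the cytoskeletal actin Actg1 was 15800 ± 2965 in controls and 15310 ± 3014 in KO mice (SD, n = 6), with a log2 fold change of -0.05 (adjusted p = 0.998), and Actb gave -0.19 (adjusted p = 0.945). Among 4 tested partners of the intermediate filaments 0 were called. Lmna, a nuclear lamin, gave 0.52 at 7 days (adjusted p = 0.304, and 0.00022 with the litter as a block), and Nes, the filament nestin, 0.20 (adjusted p = 0.78).

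The regulators were counted in the same way. Of 19 tested genes of serum response factor, its coactivators, TGF-beta and related signalling, only Tgif1, a repressor of TGF-beta targets, was called at 7 days, with 0.51 (limma adjusted p = 0.0274, lost in 15 of 43 alternatives), and 4 were called with the litter as a block; over all probe sets 2.38% were called higher, and 4.55% with the block. Without the 4 arrays the Tgif1 call was lost (limma adjusted p = 0.353). At 1 month 0 of the 19 were called, or 2 with the block, where 0.266% and 1.08% of all were. In both genotypes 15 of the 19 fell between the ages, beside 24.8% of all probe sets in controls and 24.2% in KO mice. Of 7 tested PDGF ligands and relatives, Csf1r rose by 0.64 at 7 days (adjusted p = 0.0022). The call was lost in 1 of 43 alternatives, the mean of its probe sets. It encodes the receptor for colony-stimulating factor 1, which marks macrophages and is also on the macrophage list. Plat and Nrp1, the brightest others, gave 0.24 and 0.15 (adjusted p = 0.771 and 0.945). Of 9 tested pericyte, mesangial and renin-lineage genes 0 were called at either age by limma, and 1 was called lower at 7 days with the block (3.5% of all). Notch3 and Mcam, the brightest, gave 0.21 and 0.18 at 7 days (adjusted p = 0.755 and 0.819).

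Some matrix genes of myofibroblasts rose at each age. Of 24 tested, 6 rose at 7 days and 0 fell, where 2.38% of all probe sets rose, and 15 rose with the litter as a block, where 4.55% of all did, with a median log2 fold change of 0.36 and 22 values above 0. These were Thy1 with 1.39 (limma adjusted p = 0.000433), Tnc with 1.30 (0.00102), Tgfbi with 1.2 (4.18e-05), Timp1 with 0.99 (0.00998), Lgals1 with 0.57 (0.00739) and Ccn1 with 0.52 (0.0377, lost in 18 of 42 alternatives). The Timp1 call was lost without litter 1 (adjusted p = 0.0763). Without the arrays whose Aprt signal went against the label, the Ccn1 call was lost, at 0.42 (limma adjusted p = 0.421). Tnc encodes tenascin C and Timp1 an inhibitor of metalloproteinases. Thy1 is a surface protein of fibroblasts and of T cells, and Tgfbi and Lgals1 are also made by macrophages, whose markers rose in the same arrays; their part in the result was not tested. The fibrillar collagens were not called at 7 days: Col1a1 gave 0.39 (adjusted p = 0.343), Col1a2 0.20 (0.729) and Col3a1 0.27 (0.382).

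At 1 month 4 of the 24 rose, and 6 with the litter as a block, beside 0.266% and 1.08% of all probe sets, with a median of 0.49. Col1a1 read 732 ± 117.1 in controls and 2076 ± 234.7 in KO mice (SD, n = 3) and rose by 1.47 on the log2 scale, with a limma adjusted p of 0.00809. Col1a2 rose by 1.10 and Col3a1 by 1.08, each with an adjusted p of 0.00809, and Postn, the matrix protein periostin, by 0.96 (0.0331, lost in 21 of 43 alternatives, among them the striated muscle score as a covariate, at 0.0769). Without the 4 arrays the Postn call was lost too (limma adjusted p = 0.39). The collagen calls were each lost in 7 to 9 of 43 alternatives. All 3 were lost without the 1-month control or KO mouse of litter 7, the only females of that age, without litter 7 or litter 8, and without the 4 arrays whose Aprt signal went against the label. Over all alternatives the highest adjusted p were 0.103 for Col1a1 and 0.563 for Col1a2 and Col3a1. The mean of the Col1a2 probe sets gave a log2 fold change of only 0.475 (limma adjusted p = 0.563). With each age fitted on its own, the 1-month calls of Col1a2 and Col3a1 (both limma adjusted p = 0.563) and of Postn (0.682) were lost. Tnc, Thy1 and Tgfbi gave 0.51, 0.79 and 0.54 at this age, with adjusted p of 0.999, 0.702 and 0.777. None of the 24 passed the interaction test by limma, or 5 with the block (1.61% of all). Col6a1 and Sparc, the brightest never called, gave 0.33 and 0.21 at 7 days (adjusted p = 0.533 and 0.893) and 0.45 and 0.50 at 1 month (both 0.999).

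Among the interstitial fibroblast genes were some whose genotype difference changed with age. Of 17 tested, 1 rose and 1 fell at 7 days, beside 2.38% and 0.561% of all probe sets, with a median of 0.15. Mgp, an inhibitor of calcification that is also made by vascular smooth muscle, rose from 1313 ± 202.3 to 3315 ± 545 (SD, n = 6), by 1.32 (limma adjusted p = 1.96e-05), and Ogn, a small proteoglycan, fell by 1.03 (adjusted p = 0.00264). With the block 5 rose and 1 fell, beside 4.55% and 3.5% of all. At 1 month 5 rose, 12 with the block, beside 0.266% and 1.08% of all, with a median of 0.75. They were Tcf21, a transcription factor of stromal cells and of podocytes, with 0.96 (0.0201), and the proteoglycans Lum with 0.90 (0.0252) and Dcn with 0.83 (0.0297). The others were Smoc2 with 0.98 (0.0352, lost in 23 of 43 alternatives) and the microfibril gene Mfap2 with 0.84 (0.0483, lost in 33). Podocyte markers summed to 1733 to 2180 in the 1-month controls and 2117 to 2661 in the KO mice, and their part was not tested. The interaction was called for 3 of the 17, or 7 with the block, beside 0.414% and 1.61% of all: Lum at 1.11 (adjusted p = 0.015), Tcf21 at 1.07 (0.0234) and Dcn at 1.04 (0.015). At 1 month the Dcn, Lum and Tcf21 calls were lost in 15, 16 and 9 of 43 alternatives and in the interaction in 9, 9 and 13 of 42, with the values from 0.63 to 1.21 and from 0.80 to 1.32. Leaving out the 1-month control or KO mouse of litter 7, or the 4 arrays, ended each of these 6 calls. Without the 4 arrays the 1-month calls of Smoc2 (limma adjusted p = 0.0945) and Mfap2 (0.222) were lost as well. With each age fitted on its own, all the 1-month calls of this list were lost. The limma adjusted p were 0.563 for Dcn and Smoc2, 0.62 for Lum, and 0.69 for Tcf21 and Mfap2. The striated muscle markers summed to 2601 to 13310 in the 1-month KO mice and 2095 to 2895 in the controls. With the muscle score as a covariate the 1-month calls of Lum (adjusted p = 0.216), Tcf21 (0.121), Smoc2 (0.0896) and Mfap2 (0.254) were lost, as were the interactions of Lum (0.106) and Tcf21 (0.114), while Dcn kept both (0.0381 and 0.0327). Penk, the brightest gene not called, gave 0.50 at 7 days and 0.90 at 1 month (adjusted p = 0.0502 and 0.0538, and 0.00035 and 0.000581 with the litter as a block). Eln, the elastin gene, gave 0.30 and 0.37 (adjusted p = 0.394 and 0.999, and 0.0219 and 0.116 with the block).

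**Figure D5:**
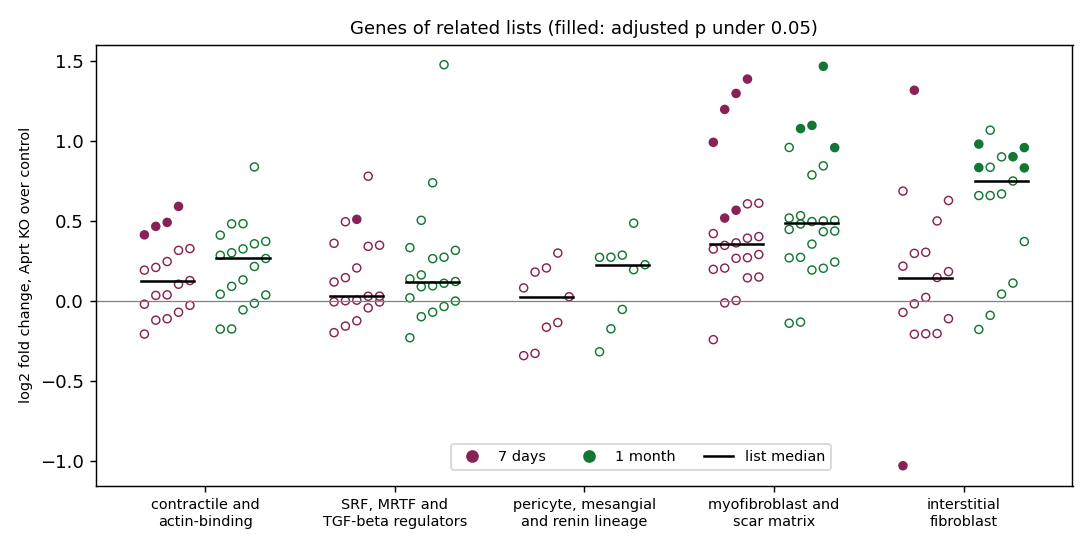
Log2 fold change of Aprt KO over control (vertical axis) for the tested genes of 5 related lists (horizontal axis), at 7 days (purple) and 1 month (green); 1 point is 1 gene, filled where the adjusted p is under 0.05, and black lines are list medians. The median of the interstitial fibroblast list lies at 0.15 at 7 days and 0.75 at 1 month, while the medians of the contractile list are 0.13 and 0.27.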

How the data were processed

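The authors deposited 1 table of intensity signals on a linear scale, made in GCOS with the MAS5 algorithm (submitters' processing notes). Their versions and the target of the scaling were not given in the sources used here. The 2% trimmed mean signal was 500.2 to 500.4 on each of the 18 arrays. The number of arrays limits the precision. Signals were used as deposited and tested as log2(signal + 29), 29 being the rounded 20th percentile of all values, which understates changes of dim genes.

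Probe sets with 1 gene symbol (10833, against 396 with several, 1193 with none and 66 controls) and a mean signal at or above the 40th percentile were tested, 6771 in all. Symbols come from the platform annotation. limma 3.58.1 in R 4.3.3 (lmFit, eBayes with trend) was fitted to all 18 arrays with a term per group and 1 sex term per age, with 12 residual degrees of freedom. Tests were two-sided and adjusted by Benjamini-Hochberg. Nothing says whether extraction or scanning was shared.

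The littermates named in the labels form the pairs, and their deviations from group means correlated at 0.222 to 0.666. Each array was compared with the arrays of the other genotype at the same age. For 12 of 18 arrays the highest of these correlations was that with the own littermate. The random block had a correlation of 0.567. Members and lists were chosen with earlier results of these data known. Named are the 8 genes, list members called in a genotype comparison or the interaction, and the 2 brightest others of each list; those of the regulator list are not reported here. Alternatives covered the pseudocount, filter, normalisation, variance model, sex term, litter, probe sets per gene, a striated muscle score of 11 markers, 4 arrays and each mouse or litter. Marker lists for endothelium, podocyte, adrenal, fat, kidney tubule and nephron progenitors gave 0 calls between the genotypes at either age; with the litter as a block, 2 endothelial and 6 tubule markers were called lower at 7 days, where 3.5% of all probe sets were. Figures were drawn with matplotlib 3.10.9.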

Additional observations from a re-analysis of the deposited data

Results flagged for a closer look

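Of 66 groups of 6 arrays examined, 5 held a mouse whose signal stood apart from the rest of its group; chance gives about 1 in 20. The 7-day control of litter 3 read 216.4 for Pdgfrb, below the others. For Thy1 the 7-day control of litter 6 read 547, above the others. Among the 7-day KO mice, that of litter 1 read 1954 for Timp1, above the others, and that of litter 3 read 3058 for Postn, above the others, and 1761 for Mfap2, below the others. The genotype effect differed between the ages, by the interaction test, for Lum (1.11), Tcf21 (1.07) and Dcn (1.04).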

How the results depend on the processing

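At 7 days the Tagln call held in every alternative run (0.79 to 0.95 over 43 alternatives). The Cnn1 call held in the 42 that tested it (1.03 to 2.13). With the filter at the 60th percentile, a mean signal of 312.8, Cnn1 was too dim to be tested. It had passed the main filter only through the 7-day KO group. The count of the 8 probe sets called at 1 month, 0 by limma with 4 at an unadjusted p under 0.05, was 1 with a pseudocount of 1, 1 with the filter at the 60th percentile, 1 with the litter as a fixed replicate block and 3 with it as a random block, and 0 to 1 without single mice or litters. For the interaction the count of 0, with 1 at an unadjusted p under 0.05, was 1 with the random block. Beyond the calls named with their results, the block changed none for the 8 probe sets.

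Values with no call changed sign in a few settings. Des at 1 month was -0.0101 under quantile normalisation. The Acta2 interaction was -0.0332 with a pseudocount of 119 and -0.0343 under quantile normalisation. For the second brightest Pdgfra probe set the age change became 0.11 and 0.15 under quantile normalisation and 0.12 and 0.15 under median centring, in controls and KO mice, and without the 4 arrays 0.0264, 0.23 and, for the genotype at 1 month, 0.12. Without single mice or litters the ranges were -0.0136 to 0.44 and -0.17 to 0.23 for Des at 7 days and 1 month, -0.24 to 0.14 and -0.14 to 0.12 for that Pdgfra probe set, -0.31 to 0.0106 and -0.20 to 0.12 for its age change in controls and KO mice, -0.46 to 0.18 for Cnn1 at 1 month and -0.0361 to 0.14 for the Acta2 interaction. The cause was not tested.

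Calls over all probe sets moved more. At 7 days 199 became 545 with the fixed block, 568 with the random block, 103 without the 4 arrays, 126 without litter 1 and 127 without litter 5. At 1 month 19 became 80 and 119 with the blocks, 29 and 7 with pseudocounts of 1 and 119, 9 without a filter, 11 with centring, 12 without a sex term, 1 with each age fitted on its own, 10 with the mean of a gene's probe sets, 7 with the muscle score and 3 without the 4 arrays, and without single mice or litters as few as 0, that being without litter 8. In the interaction 28 became 109 and 153 with the blocks, 14 with the muscle score, 7 without the 4 arrays, 10 without the control or the KO mouse of litter 7, and 14 to 18 without the KO mouse or the control of litter 9 or without litter 2, 6, 7 or 9. Age calls went from 2596 to 1320 in KO mice without the 4 arrays and to 1532 without the KO mouse of litter 7, and from 2615 to 1567 in controls without that of litter 7.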
